A study of Mus musculus with 8 samples.

Results

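The mast cell genes described here, 9 in number, were chosen by name, and all 9 were found among the 16464 genes of the deposited table. They were Fcer1a and Ms4a2 (subunits of the high-affinity IgE receptor), Kit (the receptor of stem cell factor), Hdc (the enzyme that makes histamine), Cpa3, Cma1, Mcpt4 and Tpsb2 (proteases stored in granules) and Gata2 (a transcription factor). RNA was taken from posterior knee joint capsules of wild type C57BL/6 male mice that were 10 weeks old at collection. The cast group had 4 libraries, from knees immobilised at 140 degrees by casting for 2 weeks, begun when the mice were 8 weeks old. The naive group had 4 libraries and no cast. No label says that libraries came from separate mice, so a p value here covers the spread between these samples alone, which may be technical. The tissue was dissected whole, and in such bulk RNA more cells of a type cannot be told apart from more RNA per cell.

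Mast cells are tissue-resident leukocytes that sit around vessels and nerves in connective tissue, joint capsule and synovium included. Antigen that cross-links IgE on their receptor makes them release granules that hold histamine, heparin proteoglycan and proteases, and survival in tissue depends on KIT and its ligand. Mouse connective tissue mast cells are known by the chymases Cma1 and Mcpt4, the tryptase Tpsb2 and the carboxypeptidase Cpa3. Setting cast against naive capsules asks whether these transcripts differ after the knee has been immobile.

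Values were normalised read counts, from which whole reads were recovered. The cast libraries held 5956148 to 7381255 reads and the naive libraries 1503880 to 6805349. Naive replicate 4 was the shallowest library by far. One read was worth 0.647 there, against 0.133 to 0.165 in the other 7 libraries, so low members are coarse in it. The capsule's fibroblast genes were abundant in both groups, with Col1a1, a fibrillar collagen, between 1075 and 8473 in cast libraries and between 2045 and 6363 in naive libraries. They were not all level between the groups. Of the 12 listed, 2 (Lum and Pdpn) passed the limma test given below upward in cast capsules. Another 2 (Fn1 and Cd34) passed it downward and 8 did not pass, beside 6.51% of all genes called higher and 5.46% lower. Genes of skeletal muscle, a tissue next to the capsule, summed to 48.0 to 757 over 12 genes in cast libraries and to 171 to 5963 in naive libraries. The lowest naive sum of muscle genes was that of replicate 4. All 12 muscle genes overlapped between the groups, and 5 of them passed the test downward in cast capsules.

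Of the 9 mast cell genes, Fcer1a and Hdc rose after casting, none fell, and 7 did not pass the test; at an unadjusted p under 0.05 limma had 5 members higher and 0 lower, beside 14.4% and 12.2% of all genes. The test was limma on log2(value + 1), with Benjamini-Hochberg adjusted p at most 0.05 over 15120 genes. Across these, 6.51% were called higher in cast capsules, 5.46% lower and 12.0% in either direction. On the recovered reads, edgeR called the same 2 members among 7.29% of genes called higher, and DESeq2 called these and Cpa3 among 9.68%. All 9 members were above the filter on low values. Fold changes were above 0 in 8 of the 9, with a median log2 fold change of 0.84, beside 0.07 over all genes tested. The 4 cast libraries lay above the 4 naive libraries in 3 members, Fcer1a, Hdc and Cpa3, and 11.1% of all tested genes had that pattern. No member had all cast below all naive libraries, a pattern of 9.39% of genes. Cast replicate 4 was the highest of the 8 libraries in 7 of the members, the exceptions being Kit and Gata2.

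**Figure D1:**
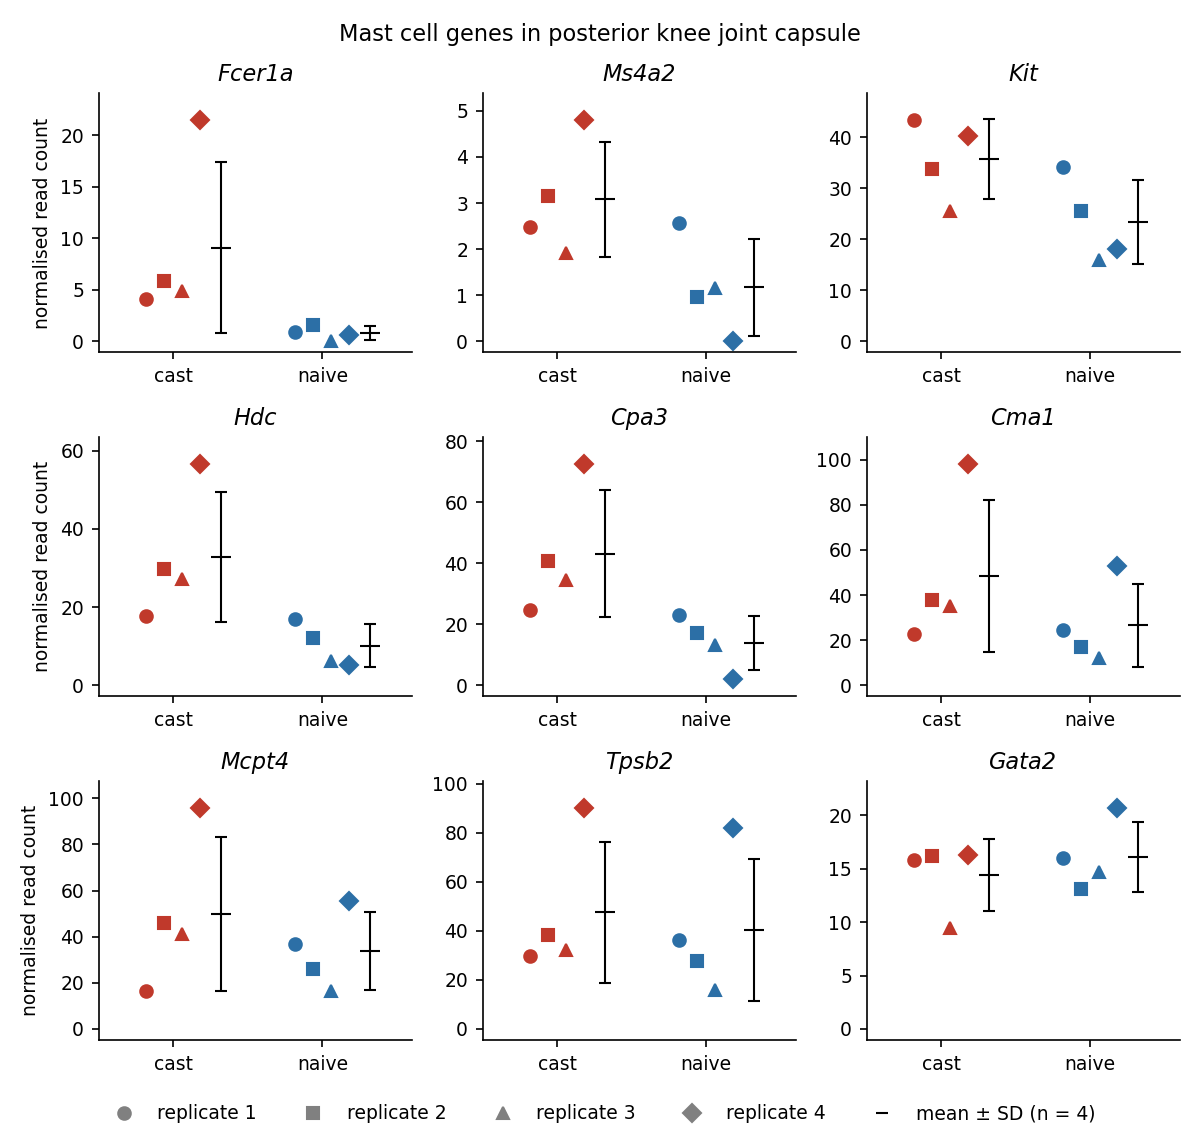
Normalised read count (vertical axis, linear) of each of the 9 genes in the 4 cast (red) and 4 naive (blue) libraries, with a marker shape for each replicate number and the mean ± SD beside them. Groups are apart in Fcer1a, Hdc and Cpa3, and naive replicate 4 (blue diamond) is the lowest naive value of Cpa3, at 1.94, but the highest of Cma1, Mcpt4 and Tpsb2.

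The genes lie apart in the genome, on chromosomes 1 (Fcer1a, 173221284 to 173227214, minus strand), 19 (Ms4a2, 11615523 to 11623719, minus), 2 (Hdc, 126593667 to 126619299, minus), 3 (Cpa3, 20215620 to 20242181, minus), 17 (Tpsb2, 25366305 to 25369098, plus), 5 (Kit, 75574916 to 75656722, plus) and 6 (Gata2, 88193891 to 88207032, plus). Mcpt4 (56059629 to 56062313, minus) and Cma1 (55941451 to 55944675, minus) share the mast cell protease cluster on chromosome 14. All 9 are protein-coding in GENCODE M21 on GRCm38. Within these intervals the annotation holds 1 further gene, a miRNA inside Cpa3 on the same strand that is not among the genes of the table.

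GATA factors, GATA2 among them, bind a short motif in the promoters of several mast cell genes, so promoter windows of 300 bases (250 before to 50 after the start, RefSeq, GRCm38.p6) were searched on both strands for the letters AGATAA, for AGATAG, for TGATAA and for TGATAG. RefSeq windows were at hand for 8 of the 9 genes, Tpsb2 being the other. At least 1 match stood in 6 of the 8 genes (Fcer1a, Ms4a2, Hdc, Cpa3, Mcpt4 and Cma1) and 0 in the windows of Kit and Gata2. Of all 32851 windows of that length, 29.8% held a match. Ms4a2 had 3 matches, a number reached or passed by 1.76% of windows, and the 5 other genes had 1 each. The E-box letters CACGTG and CATGTG, searched on both strands as a motif of MITF (a mast cell transcription factor), stood in 1 of the 8 genes (Fcer1a), against 20.4% of all windows. TATAAA, on the gene strand, stood in 3 of the 8 (Fcer1a, Cpa3 and Mcpt4), against 8.32% of all windows. No 2 matches of different motifs overlapped. A match is a run of letters and not a measured binding site. The windows of the genes whose groups did not overlap, and of Ms4a2 with its 3 matches, are printed on the gene's strand, with GATA matches in capitals. They lie at chr1:173227180-173227479 (Fcer1a, minus strand), chr2:126618629-126618928 (Hdc, minus), chr3:20242132-20242431 (Cpa3, minus) and chr19:11623670-11623969 (Ms4a2, minus). The Hdc window lies wholly inside the GENCODE interval of Hdc, so its RefSeq start is not the GENCODE start of the gene. A stretch after the RefSeq start was found in a GENCODE coding transcript of the gene for Hdc, Cpa3 and Ms4a2, but not for Fcer1a.
Fcer1a: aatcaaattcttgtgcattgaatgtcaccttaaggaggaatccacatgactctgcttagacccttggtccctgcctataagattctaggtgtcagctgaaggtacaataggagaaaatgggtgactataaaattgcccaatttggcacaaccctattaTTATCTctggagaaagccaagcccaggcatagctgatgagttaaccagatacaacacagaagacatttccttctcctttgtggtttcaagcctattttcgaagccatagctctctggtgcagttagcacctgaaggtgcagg
Hdc: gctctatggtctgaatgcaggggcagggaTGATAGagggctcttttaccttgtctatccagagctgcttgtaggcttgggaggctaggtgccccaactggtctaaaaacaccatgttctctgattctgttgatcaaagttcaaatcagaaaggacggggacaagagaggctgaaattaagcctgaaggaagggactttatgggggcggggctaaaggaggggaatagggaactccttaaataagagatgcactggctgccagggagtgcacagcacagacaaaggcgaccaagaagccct
Cpa3: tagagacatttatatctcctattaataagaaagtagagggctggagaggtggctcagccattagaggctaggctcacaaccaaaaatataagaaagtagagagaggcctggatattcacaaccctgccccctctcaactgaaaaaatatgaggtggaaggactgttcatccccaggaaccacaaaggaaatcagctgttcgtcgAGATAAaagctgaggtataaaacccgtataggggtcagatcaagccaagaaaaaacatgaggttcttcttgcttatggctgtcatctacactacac
Ms4a2: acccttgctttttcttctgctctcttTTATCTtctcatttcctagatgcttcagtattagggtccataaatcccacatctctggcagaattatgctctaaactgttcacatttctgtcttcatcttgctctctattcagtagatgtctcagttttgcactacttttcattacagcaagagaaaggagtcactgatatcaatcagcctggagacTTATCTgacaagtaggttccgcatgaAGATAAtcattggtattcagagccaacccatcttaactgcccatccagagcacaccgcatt

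The IgE receptor is built from an alpha chain that binds IgE (Fcer1a), a signal-amplifying beta chain (Ms4a2) and a gamma chain (Fcer1g) that other Fc receptors share. Fcer1a had values of 4.12, 5.84, 4.91 and 21.5 in cast replicates 1 to 4, against 0.904, 1.61, 0 and 0.647 in naive replicates 1 to 4. Every cast library was above every naive one, and cast replicate 4 stood far above the other 3. These values rest on 25, 39, 36 and 161 reads in cast libraries and on 6, 10, 0 and 1 in naive libraries. Means were 9.09 ± 8.29 in cast and 0.791 ± 0.667 in naive capsules (SD, n = 4 each), a log2 fold change of 2.29 ± 0.48 (SE; limma adjusted p = 0.0156). The call held with any 1 library left out (adjusted p = 0.0159 to 0.0462). It was lost with a muscle covariate, the mean log2(value + 1) of the 12 muscle genes (log2 fold change 2.29, limma adjusted p = 0.0530). Naive replicate 4 was the only naive library with a muscle sum inside the cast range, so the covariate fit leans in part on it. That fit called 17.6% of genes higher.

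Ms4a2, the beta chain, was low throughout. It had values of 2.47, 3.15, 1.91 and 4.80 in cast replicates 1 to 4, against 2.56, 0.968, 1.16 and 0 in naive replicates 1 to 4. The groups overlapped through naive replicate 1, which lay above cast replicates 1 and 3. Its log2 fold change of 1.002 ± 0.39 did not pass the test (limma adjusted p = 0.131), but with the muscle covariate it was 1.88 and passed (adjusted p = 0.0227). That fit called 17.6% of genes higher. It leans in part on naive replicate 4, the only naive library with a sum of muscle genes (171) inside the cast range (48.0 to 757). The covariate was not fitted without that library. That library had 0 reads of Ms4a2. Fcer1g, the gamma chain, which macrophages and neutrophils also express, had values of 88.8, 119.9, 126 and 140.2 in cast libraries, against 58.9, 42.4, 60.3 and 76.3 in naive libraries. The groups did not overlap, and Fcer1g rose (log2 fold change 0.996 ± 0.22, limma adjusted p = 0.0177). Its call was lost without cast replicate 2, cast replicate 3 or naive replicate 2, with an adjusted p of at most 0.0602 over the 8 such fits.

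Basophils share the IgE receptor with mast cells. Their defining proteases were at or near 0 in naive capsules. Mcpt8 had values of 0.824, 1.499, 0.273 and 0 in cast replicates 1 to 4 and was listed at 0 in all naive libraries, with too low a mean to be tested. Prss34 had values of 2.47, 3.30, 0.954 and 0.133 in cast replicates 1 to 4, against 0, 0.323, 0.331 and 0 in naive libraries (limma adjusted p = 0.123). Both were lowest among the cast libraries in replicate 4, whereas Cd200r3 and Cd69 of the same list were highest there, both at low levels. The part of basophils in the level of Fcer1a was not tested. The 6 basophil genes found, of 8 listed, summed to 14.0 to 22.0 in cast and to 6.47 to 10.2 in naive libraries. Il3ra was the largest part of that sum in every library, with means of 10.7 ± 1.39 in cast and 7.35 ± 1.07 in naive capsules. Its groups did not overlap, a pattern of 11.1% of all tested genes, but it did not pass (log2 fold change 0.48, limma adjusted p = 0.142). Limma and edgeR called 0 of the 5 basophil genes tested. At an unadjusted p under 0.05 limma had 4 of the 5 higher in cast capsules, beside 14.4% of all genes. DESeq2 called 2, Prss34 and Il6 (an interleukin that many cell types make), beside 9.68% of all genes called higher. Prss34, Il6 and Cd69 had naive means of 0.163, 0.151 and 0.321 and reached the filter on low values only through the cast libraries. Their p values and calls are thus no support for a difference.

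Kit encodes the receptor tyrosine kinase on which mast cells depend, and is also made by melanocytes and blood progenitors. It had values of 43.3, 33.7, 25.5 and 40.3 in cast replicates 1 to 4, against 34.2, 25.5, 16.0 and 18.1 in naive replicates 1 to 4. Naive replicate 1 lay above 2 of the cast libraries, so the groups overlapped. Means were 35.7 ± 7.90 in cast and 23.5 ± 8.23 in naive capsules, a log2 fold change of 0.62 ± 0.27 that did not pass the test (limma adjusted p = 0.177). Kitl, which encodes its ligand stem cell factor, had a log2 fold change of 0.48 (limma adjusted p = 0.558). The 5 melanocyte genes found, of 6 listed, summed to 10.9 to 14.7 in cast and 10.8 to 13.9 in naive libraries. Of 8 blood progenitor genes tested, 2 were called higher, 1 lower and 5 did not pass (median log2 fold change 0.44). Over all genes tested, 6.51% were called higher and 5.46% lower. Of the 2 called higher, 1 is not reported here. Flt3, a receptor tyrosine kinase of early progenitors and dendritic cells, rose, and Cd34, which fibroblasts and vessels of this tissue also express, fell. Flt3 had values of 15.7, 6.89, 10.5 and 4.27 in cast replicates 1 to 4, against 2.41, 0.968, 1.98 and 2.59 in naive replicates 1 to 4 (log2 fold change 1.70, limma adjusted p = 0.0171). The part of progenitors in the level of Kit was not tested.

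Hdc, histidine decarboxylase, rose after casting. It had values of 17.6, 29.8, 27.3 and 56.7 in cast replicates 1 to 4, against 17.0, 12.1, 6.12 and 5.17 in naive replicates 1 to 4. The groups did not overlap, but cast replicate 1 and naive replicate 1 were nearly level. Means were 32.9 ± 16.7 in cast and 10.1 ± 5.54 in naive capsules (SD, n = 4 each), a log2 fold change of 1.62 ± 0.42 (limma adjusted p = 0.0347). The call was lost when cast replicate 2, 3 or 4 or naive replicate 2 or 3 was left out, with adjusted p values of 0.0818, 0.0823, 0.0789, 0.0613 and 0.0934.

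Immature myeloid cells and basophils also make Hdc, and neutrophil genes moved with the groups. The sum of the 12 neutrophil genes found, of 13 listed, was 2156, 7268, 1227 and 1262 in cast replicates 1 to 4, against 62.7, 115, 51.8 and 94.4 in naive replicates 1 to 4, and 11 of the 12 rose. Among the cast libraries, Hdc was highest in replicate 4 and the neutrophil sum in replicate 2. Both were higher in every cast library than in any naive one, so casting and neutrophil content cannot be told apart here. The sum of 5 marrow precursor genes was 97.9, 262, 8.18 and 12.5 in cast replicates 1 to 4, against 6.63, 6.13, 3.64 and 12.3 in naive replicates 1 to 4. Without cast replicates 1 and 2, which had the high precursor sums, Hdc had a log2 fold change of 2.00 (limma adjusted p = 0.0805) and Fcer1a one of 2.77 (adjusted p = 0.0495). Cast replicate 4, the highest library in both genes, stayed in that fit. The fit thus cannot show the part of precursors in either gene, which was not tested. The remaining cast libraries still had neutrophil sums of 1227 and 1262, and the part of neutrophils in the level of Hdc was not tested.

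Cpa3, the mast cell carboxypeptidase, had separate groups but did not pass the test. It had values of 24.7, 40.8, 34.5 and 72.6 in cast replicates 1 to 4, against 22.9, 17.1, 13.2 and 1.94 in naive replicates 1 to 4. The value of naive replicate 4 came from 3 reads. Means were 43.1 ± 20.7 in cast and 13.8 ± 8.85 in naive capsules, a log2 fold change of 1.82 ± 0.61 (limma adjusted p = 0.0851). Without naive replicate 4 the fold change was smaller but passed (log2 fold change 1.16, adjusted p = 0.0389), in a fit that called 9.12% of genes higher. With the muscle covariate the log2 fold change was 3.25 (limma adjusted p = 0.0155), in a fit that leans in part on naive replicate 4 and its 3 reads.

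The chymases Cma1 and Mcpt4 and the tryptase Tpsb2 overlapped between the groups. Cma1 had values of 22.9, 37.9, 35.0 and 98.2 in cast replicates 1 to 4, against 24.6, 16.9, 11.9 and 53.0 in naive replicates 1 to 4 (log2 fold change 0.84 ± 0.51, limma adjusted p = 0.332). Mcpt4, the functional counterpart of human chymase, had values of 16.5, 45.9, 41.3 and 95.9 in cast replicates 1 to 4, against 36.6, 26.1, 16.4 and 55.6 in naive replicates 1 to 4 (log2 fold change 0.44 ± 0.51, limma adjusted p = 0.631). Tpsb2, the tryptase mMCP-6, had values of 29.8, 38.2, 32.04 and 90.3 in cast replicates 1 to 4, against 36.2, 27.6, 16.0 and 82.1 in naive replicates 1 to 4 (log2 fold change 0.32 ± 0.49, limma adjusted p = 0.719). In all 3 genes the fourth replicate was the highest of its group, in cast and in naive capsules alike. Without naive replicate 4 their log2 fold changes were 1.24, 0.72 and 0.735, none past the test (limma adjusted p = 0.0774, 0.357 and 0.228). Without cast replicate 4 they were 0.44, 0.04 and -0.04 (adjusted p = 0.626, 0.969 and 0.974). With the muscle covariate, in the fit that leans in part on naive replicate 4, they were -0.18, -0.60 and -0.64.

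Paralogs could share reads with some of these genes. Of the 31-base words in the longest coding transcript, 12.2% in Mcpt4, 10.6% in Cma1, 4.91% in Ms4a2 and 0.715% in Tpsb2 also stood in a transcript of another gene, and 0% in Fcer1a, Hdc, Cpa3, Kit and Gata2. The values of Mcpt4 and Cma1 may thus be the less certain ones, but how many of their reads were ambiguous was not measured.

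**Figure D2:**
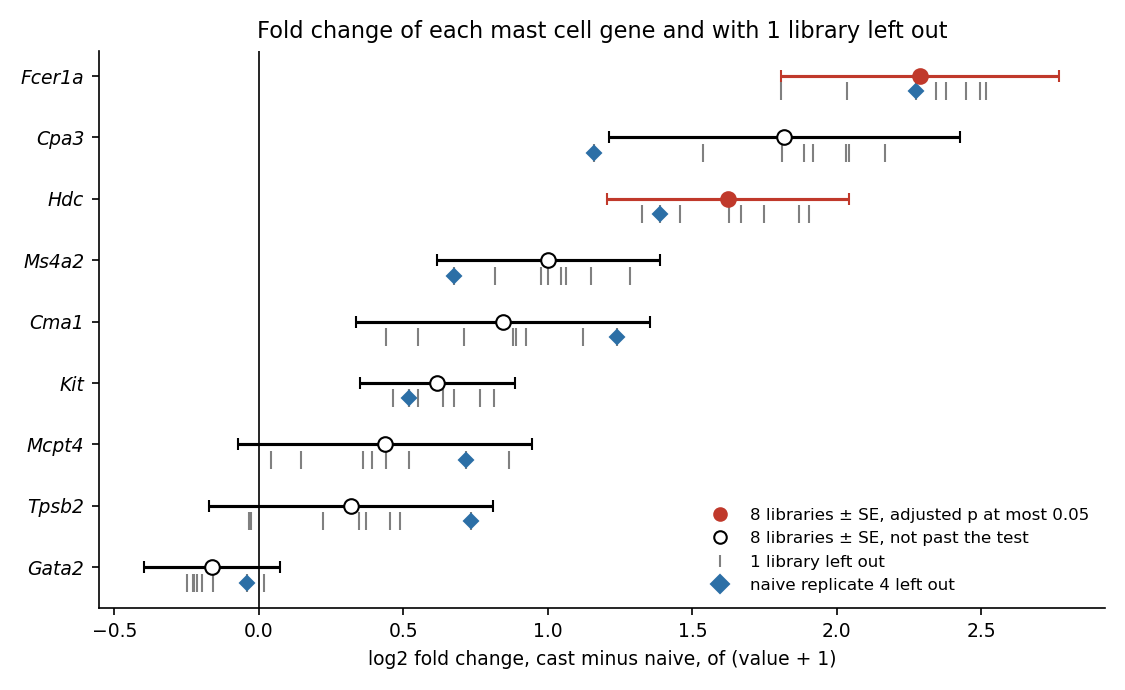
Log2 fold change, cast minus naive, of (value + 1) for each gene (horizontal axis), with SE bars for all 8 libraries (red, past the test), and ticks beneath for each fit with 1 library left out (blue diamond, naive replicate 4 left out). Without naive replicate 4, Cpa3 moves to 1.16 and Cma1 to 1.24, toward each other, and Fcer1a keeps the highest value, 2.27.

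The sum of the 4 protease genes was 93.9, 163, 143 and 357 in cast replicates 1 to 4, against 120.2, 87.8, 57.5 and 193 in naive replicates 1 to 4. The ranges overlapped, and the difference of mean log2 sums, 0.68, was below the within-group SD of 0.77 (n = 4 each). Cpa3 made up far less of this sum in naive replicate 4 than in the other 7 libraries. It took 26.3%, 25.05%, 24.1% and 20.3% of the protease reads in cast replicates 1 to 4, against 19.0%, 19.5%, 23.0% and 1.01% in naive replicates 1 to 4. Exact 95% binomial intervals, which cover counting error only, ran from 18.8% to 30.1% over the cast libraries, from 16.2% to 27.8% over naive replicates 1 to 3, and from 0.208% to 2.91% in naive replicate 4. The low share of Cpa3 in that library is thus larger than counting error allows. Tpsb2 took 42.6% there, against 22.4% to 31.8% in cast libraries and 27.9% to 31.4% in the other naive libraries. Mcpt4 took 17.5% in cast replicate 1, with an interval of 14.5% to 20.9%, against 26.9% to 28.9% in the other cast libraries and 28.4% to 30.5% in naive libraries.

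**Figure D3:**
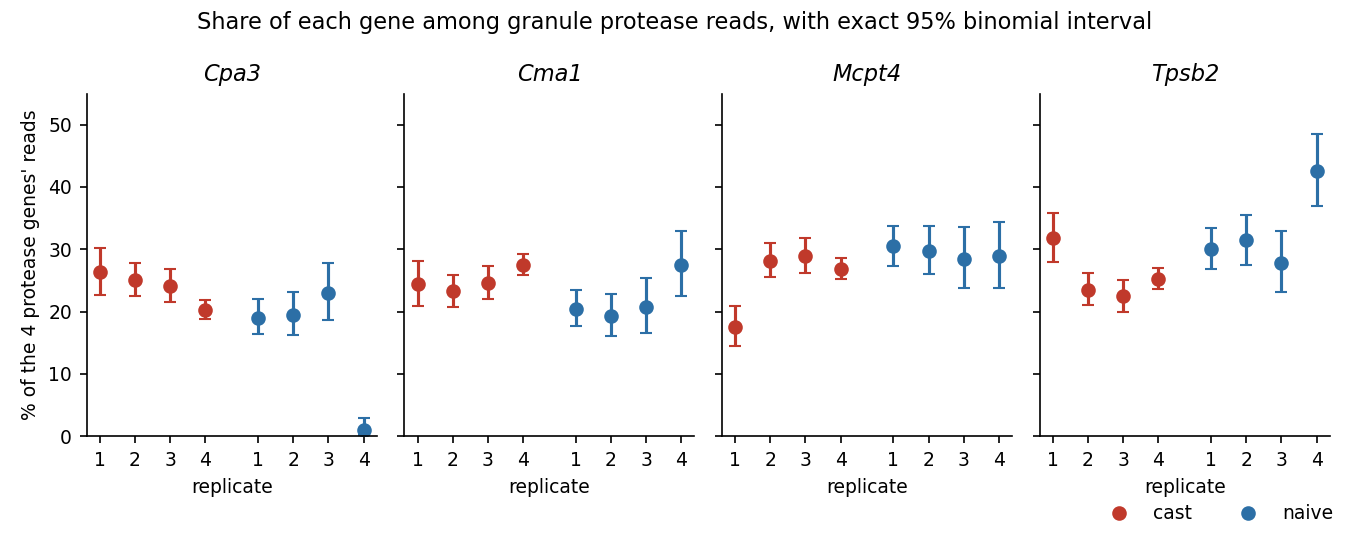
Share of each protease gene in the reads of all 4 (vertical axis, percent) by library, cast replicates 1 to 4 in red and then naive replicates 1 to 4 in blue, with exact 95% binomial intervals. In naive replicate 4, Cpa3 is at 1.01% and Tpsb2 at 42.6%, whereas all shares in the other 7 libraries lie between 17.5% and 31.8%.

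Ratios of reads between members varied among libraries. There were 0.713, 0.732, 0.791 and 0.781 reads of Hdc per read of Cpa3 in the cast libraries, in order of replicate, against 0.743, 0.708, 0.463 and 2.67 in the naive libraries, the last from 8 reads against 3. The ratio was lower than in the other libraries in naive replicate 3 and higher in naive replicate 4. For Fcer1a there were 0.167, 0.143, 0.142 and 0.296 reads per read of Cpa3 in cast replicates 1 to 4. In naive replicates 1 to 3 there were 0.0395, 0.0943 and 0 reads of Fcer1a per read of Cpa3, and naive replicate 4 had 1 read against 3. Leaving out naive replicate 4, all cast ratios of Fcer1a to Cpa3 were thus above the naive ones. Those of Hdc to Cpa3 overlapped.

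Gata2, a transcription factor of mast cells that blood progenitors and endothelial cells also use, was level between the groups. It had values of 15.8, 16.2, 9.41 and 16.3 in cast replicates 1 to 4, against 16.0, 13.1, 14.7 and 20.7 in naive replicates 1 to 4. Only cast replicate 3 lay below the naive range, and the groups overlapped. Its log2 fold change was -0.16 ± 0.23 (limma adjusted p = 0.702). Endothelial genes summed to 1058 to 1471 over 10 genes in cast libraries and to 953 to 1450.2 in naive libraries, and limma and edgeR called 0 of the 10. Over all genes, limma called 6.51% higher and 5.46% lower, and edgeR called 7.29% higher. DESeq2 called 1, Emcn, higher in cast capsules (limma log2 fold change 1.07), beside 9.68% of all genes called higher. Emcn was also the 1 gene with an unadjusted limma p under 0.05, beside 14.4% of all genes higher and 12.2% lower.

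Per kilobase of the longest coding transcript, the proteases were the most abundant members. In cast capsules the levels were 45.0 ± 30.0 for Mcpt4, 44.5 ± 30.9 for Cma1, 36.9 ± 22.3 for Tpsb2 and 29.8 ± 14.3 for Cpa3 (normalised reads per kb, SD, n = 4). Hdc followed with 13.7 ± 6.99, Fcer1a with 9.10 ± 8.30, Kit with 6.81 ± 1.51, Gata2 with 4.04 ± 0.938 and Ms4a2 with 1.29 ± 0.524. Of the steps between neighbours in this order, those from Cpa3 to Hdc, Kit to Gata2 and Gata2 to Ms4a2 were larger than the larger SD of the pair. In naive capsules the order was Tpsb2 at 31.4 ± 22.5, Mcpt4 at 30.4 ± 15.2, Cma1 at 24.4 ± 16.9 and Cpa3 at 9.52 ± 6.10. Then came Gata2 at 4.51 ± 0.919, Kit at 4.48 ± 1.57, Hdc at 4.22 ± 2.32, Fcer1a at 0.793 ± 0.669 and Ms4a2 at 0.490 ± 0.442. There the step from Hdc to Fcer1a was the only one larger than the larger SD of its pair. The place of Fcer1a above Kit in the cast order rested on cast replicate 4: without it, Fcer1a was at 4.97 ± 0.865 and Kit at 6.52 ± 1.70 normalised reads per kb (SD, n = 3).

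Likeness of profiles was measured as the root mean square difference between log2(value + 1) profiles over the 8 libraries, each centred on its own mean. Of 12615 candidate genes, Cma1 was nearest to Tpsb2 (0.307), with Apoc1, which is not a member, practically level (0.307). Mcpt4 was also among its 3 nearest (0.324). Among the members, Cpa3 was nearest to Hdc (0.554), Fcer1a to Hdc (0.547) and Hdc to Ms4a2 (0.489). Outside the members, the nearest genes were Fgl1 for Fcer1a (0.421), Ifi205 for Cpa3 (0.258), Slc16a1 for Hdc (0.310), Ackr1 for Mcpt4 (0.298), Pcdhb10 for Tpsb2 (0.293), Wnk3 for Ms4a2 (0.203), B3gat2 for Kit (0.178) and Vegfa for Gata2 (0.139). With this many candidates and 8 libraries, close neighbours are found for most genes, and the spread of the member itself was 1.34 for Fcer1a, 1.29 for Cpa3, 1.01 for Hdc and 0.285 for Gata2 on the same scale.

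Around the 9 genes, 7 lists of mast cell receptors, signalling proteins, mediators, proteases, transcription factors, ligands and histamine genes held 80 genes. Of these, 68 were tested, of which 17 rose (16 without Gzmb, which reached the filter only through the cast libraries), 3 fell and 48 did not pass (median log2 fold change 0.51, beside 0.07 over all genes). Over all genes tested, 6.51% were called higher in cast capsules and 5.46% lower. The counts of the single lists below stand beside the same shares, and in the short lists they rest on few genes. Most of the genes that passed are used by other leukocytes or stromal cells too. With any 1 library left out, 9 of the 20, Gzmb among them, kept their call in all 8 fits, and the number called was 12 without cast replicate 2, 11 without cast replicate 3, 10 without naive replicate 2 and 13 without naive replicate 3.

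Of 13 other surface receptors, 5 rose and 8 did not pass (median 0.996). Il4ra, a receptor chain for interleukins 4 and 13, averaged 358 ± 77.8 in cast and 89.3 ± 22.3 in naive capsules (log2 fold change 2.00, limma adjusted p = 0.00111). Fcgr2b, the inhibitory IgG receptor, averaged 274 ± 97.0 in cast and 74.3 ± 13.2 in naive capsules (log2 fold change 1.83, adjusted p = 0.00224). Csf2rb, the shared beta chain of the receptors of interleukin 3, interleukin 5 and GM-CSF, averaged 145 ± 13.7 in cast and 50.8 ± 15.2 in naive capsules (log2 fold change 1.54, adjusted p = 0.00269). These 3 kept their calls with any 1 library left out. Il18r1, of the interleukin 18 receptor, had a log2 fold change of 1.71 (limma adjusted p = 0.0258), lost without cast replicates 1 or 2 or naive replicates 2 or 3. Among the receptors that did not pass, 3 are named here after their values were seen. Mrgprb1 and Mrgprb2, of a receptor family that basic peptides activate, differed by 0.67 and 0.30 on the log2 scale, with limma adjusted p = 0.277 and 0.688, and Il1rl1, the interleukin 33 receptor, had 0.58 (adjusted p = 0.181).

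Of 18 genes of IgE receptor and KIT signalling, 5 rose, 1 fell and 12 did not pass (median 0.50). Lcp2, the adaptor SLP-76, averaged 50.6 ± 5.54 in cast and 19.6 ± 5.36 in naive capsules (log2 fold change 1.36, limma adjusted p = 0.00466). The leukocyte kinases Lyn, Btk and Pik3cd and the exchange factor Vav1 also rose. Log2 fold changes were 0.68 for Lyn, 0.88 for Btk, 1.08 for Pik3cd and 0.98 for Vav1, and limma adjusted p values ran from 0.0191 to 0.0357. Each of these 4 lost its call in at least 4 of the 8 fits with 1 library left out, cast replicate 2, cast replicate 3, naive replicate 2 and naive replicate 3 among them for all 4 genes. Fyn, a Src family kinase, fell to 48.7 ± 2.35 in cast capsules, against 92.8 ± 7.65 in naive capsules (log2 fold change -0.91, limma adjusted p = 0.00404). Syk, the kinase that the receptor's gamma chain recruits, differed by 0.09 on the log2 scale (limma adjusted p = 0.799).

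Among 11 genes of granule storage and mediator synthesis, Srgn and Alox5ap rose and 9 did not pass (median 0.09). Srgn, the core protein that carries granule heparin and is also abundant in other leukocytes, had values of 187, 255, 372 and 374 in cast replicates 1 to 4, against 45.8, 27.7, 53.7 and 51.1 in naive replicates 1 to 4. The groups were far apart (log2 fold change 2.70, limma adjusted p = 0.000621). Alox5ap, needed to make leukotrienes, was higher by 1.18 on the log2 scale (limma adjusted p = 0.0222), a call lost without cast replicate 2 or naive replicates 1, 2 or 3. Slc18a2, which loads histamine into granules, was named after its values were seen and had a log2 fold change of 0.75 (limma adjusted p = 0.380). Of 4 histamine receptor and clearance genes tested, of 7 listed, none passed limma (0 calls), although 2 had an unadjusted p under 0.05. These were Hrh2, which edgeR and DESeq2 called, and Hrh1, which DESeq2 called, both histamine receptors. Hrh2 had a log2 fold change of 0.97 (limma adjusted p = 0.0702) and Hrh1 one of -0.85 (adjusted p = 0.0921).

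Among 6 other proteases tested, of 10 listed, Gzmb and Ctsl were called higher and Dpp4 fell (median 0.42). Gzmb, granzyme B, also of cytotoxic lymphocytes, had values of 0.989, 1.20, 1.23 and 1.87 in cast replicates 1 to 4, against 0, 0, 0.165 and 0 in naive replicates 1 to 4, where a single read was found. It reached the filter on low values only through the cast libraries, so its call is no support for a difference. Ctsl, a lysosomal cathepsin, had a log2 fold change of 1.03 (adjusted p = 0.0174), lost without cast replicate 3 or naive replicate 2. Dpp4, a surface peptidase of fibroblasts, fell to 13.8 ± 2.95 in cast capsules, against 45.9 ± 4.13 in naive capsules (log2 fold change -1.68, limma adjusted p = 0.00111). Tpsab1, the tryptase next in kind to Tpsb2, was named after its values were seen and averaged 2.18 ± 1.39 in cast and 2.83 ± 2.04 in naive capsules (limma adjusted p = 0.832).

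Of 10 transcription factors, Runx1 and Spi1 rose, Cebpa fell and 7 did not pass (median 0.23). Runx1 averaged 329.9 ± 37.0 in cast and 104 ± 44.0 in naive capsules (log2 fold change 1.72, limma adjusted p = 0.00339). Spi1, of myeloid cells, had a log2 fold change of 0.97 (adjusted p = 0.0246), and Cebpa, a factor of fat cells and myeloid cells, one of -1.18 with an adjusted p of 0.0386. The call of Spi1 was lost without cast replicate 3 or naive replicates 2 or 3, and that of Cebpa without cast replicates 1, 3 or 4 or naive replicates 2 or 3. Mitf, which mast cells need, differed by 0.06 on the log2 scale (limma adjusted p = 0.873).

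Among 6 growth and activating ligands tested, of 10 listed, Il33 rose and 5 did not pass (median 0.19). Il33, an alarmin of stromal cells that mast cells sense, had values of 27.5, 119, 184 and 92.6 in cast replicates 1 to 4, against 14.9, 19.5, 18.02 and 4.53 in naive replicates 1 to 4. Cast replicate 1 was the lowest cast library and still above the naive range (log2 fold change 2.69, limma adjusted p = 0.0181). The call was lost without cast replicate 2 or cast replicate 3 (adjusted p at most 0.0563). Summed neutrophil genes, given above, were higher in every cast library than in any naive one, beside the many leukocyte genes of these lists, and their part in those calls was not tested.

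**Figure D4:**
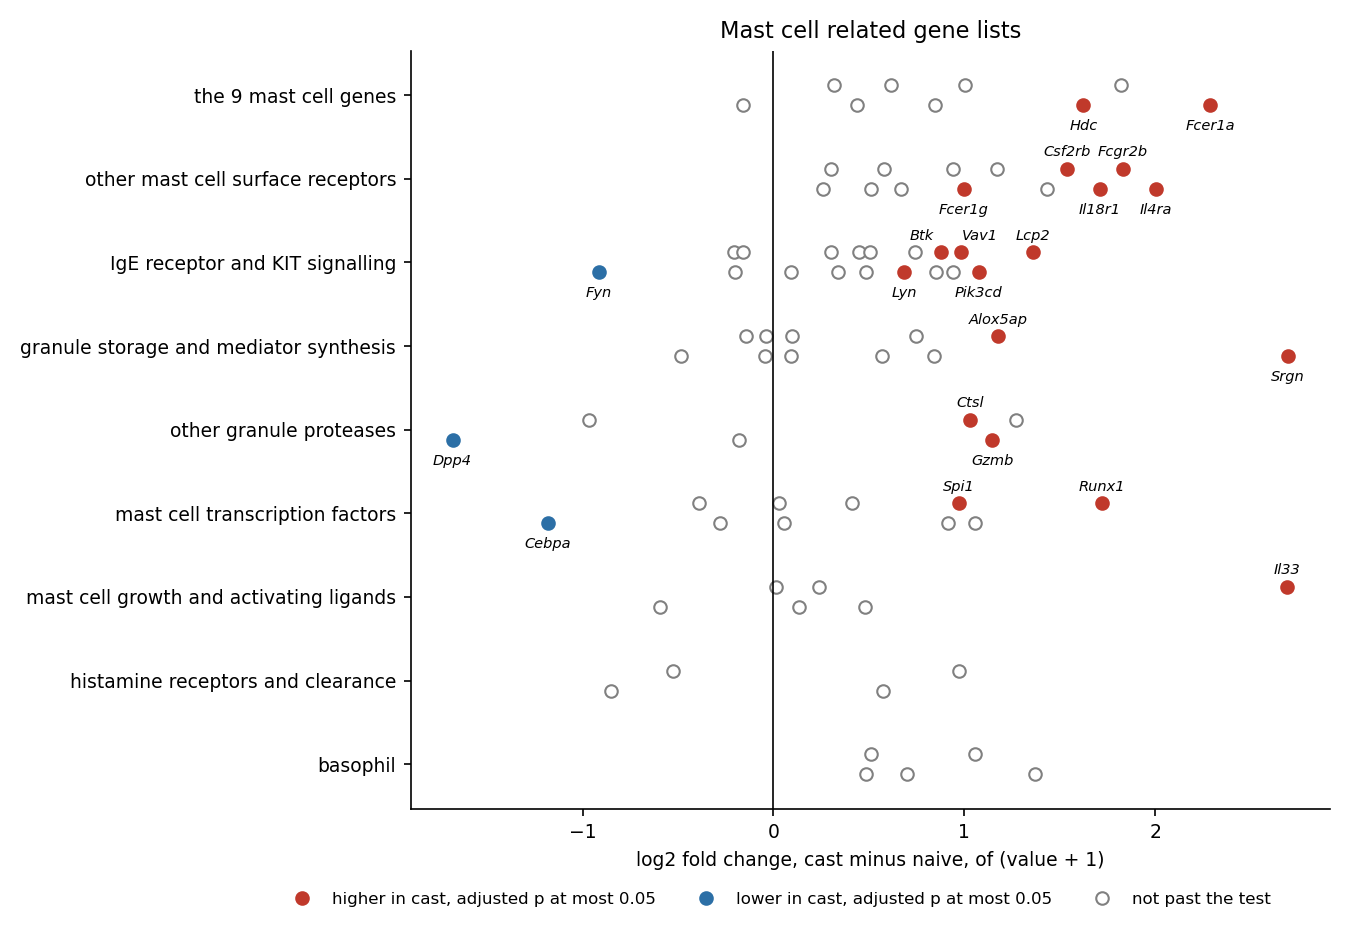
Log2 fold change, cast minus naive, of (value + 1) (horizontal axis) of each tested gene in the 9 mast cell genes, the 7 related lists and the basophil list (rows), red where higher and blue where lower past the test and open where not past it. Il33 (2.69) and Srgn (2.70) lie farthest to the right, Dpp4 (-1.68) farthest to the left, and no histamine or basophil gene passed limma's test.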

How the data were processed

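Per the labels' protocols, RNA of posterior joint capsules was extracted with Trizol, and directional libraries from 200 ng of total RNA were depleted of ribosomal RNA and sequenced as paired 150-nt reads. The labels' protocols name Trimmomatic 0.38 and human hg38 transcripts with Bowtie2 within RSEM, whereas mouse mm10, edgeR, RSEM, Bowtie2 and Trimmomatic 0.36 stand in the submitters' processing notes; the table's symbols are mouse. Strand use in counting is not given in the sources used here. The authors deposited 1 normalised signal value per gene and library. Each was a whole multiple, within 0.01, of its library's value of 1 read for 100% of genes, so whole reads were recovered; edgeR called 2039 genes on these counts. Genes with fewer than 8 reads in all are not in the table.

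Values were taken as log2(value + 1), genes with a mean of at least 0.5 kept, and groups compared with limma (trend) and Benjamini-Hochberg adjustment. The method was tested on simulated data. Alternatives were pseudocounts of 0.5 and 5, no filter and one at 2.5, scalings, array weights, no trend, a muscle covariate, replicate block, libraries left out, edgeR and DESeq2. Coordinates are from GENCODE M21 (GRCm38, the assembly of mm10) and promoters from RefSeq. The members and lists were chosen with earlier results of these data known. Named genes were all members, each listed gene past the test or otherwise the 3 most abundant, and the nearest profiles among genes with a mean of at least 2. Genes named beyond this rule were chosen after their values were seen. A progenitor gene is not reported here. Python 3.11.15 (matplotlib 3.10.9, scipy 1.17.1, numpy 2.4.6, pandas 2.3.3) and R 4.3.3 (DESeq2 1.42.0, edgeR 4.0.16, limma 3.58.1) were used.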

Additional observations from a re-analysis of the deposited data

Results flagged for a closer look

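Of 28 sets of 4 values examined (each gene's values, the protease sum and the protease shares in either group), 4 held a library far from the other 3 by Dixon's criterion, which flags about 1 in 20 such sets by chance. Fcer1a was 21.5 in cast replicate 4, against 4.12 to 5.84 in the other cast libraries. Tpsb2 was 90.3 in cast replicate 4, against 29.8 to 38.2 in the other cast libraries. Gata2 was 9.41 in cast replicate 3, against 15.8 to 16.3 in the other cast libraries. Cma1 took 27.5% of the protease reads in naive replicate 4, against 19.3% to 20.7% in the other naive libraries.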

How the results depend on the processing

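Fcer1a kept its call in 21 of 22 alternatives (adjusted p = 0.000147 to 0.0530, limma, edgeR and DESeq2), Hdc in 15 of 22 (0.00283 to 0.0934), Cpa3 passed in 4 of 22 (0.0110 to 0.200), among them DESeq2 (0.0158) but not edgeR (0.0634), and Cma1 passed in 1 of 22 and Ms4a2 in 1 of 21, being too low for the filter at 2.5. Kit, Mcpt4, Tpsb2 and Gata2 passed in 0. The number of the 9 genes called was 2, but 4 with array weights, 3 with the muscle covariate (Cpa3, Hdc and Ms4a2), 3 by DESeq2, 1 with the replicate block, 1 without cast replicates 1 and 2, and 1 to 3 with 1 library left out. Over all genes 1810 were called, but 3985 with array weights, 3967 with the muscle covariate, 2754 by DESeq2, 717 without cast replicates 1 and 2, and 916 to 2665 with 1 library left out. In the 7 related lists 20 were called, 29 with array weights, 28 by DESeq2, 24 with the muscle covariate, 16 with the replicate block, 12 without cast replicates 1 and 2 and 10 to 25 with 1 library left out. With the muscle covariate the log2 fold changes of Mcpt4, Cma1 and Tpsb2 were -0.60, -0.18 and -0.64, and that of Kit was 1.05 (not called). Those of Cpa3 and Ms4a2 were 3.25 and 1.88 in that fit (limma adjusted p = 0.0155 and 0.0227). The fit leans in part on naive replicate 4, the only naive library with a muscle sum inside the cast range. With 1 library left out Tpsb2 ran from -0.035 (without cast replicate 4; -0.03 without naive replicate 3) to 0.735 and Gata2 from -0.25 to 0.017 (without cast replicate 3). The causes were not tested. The log2 difference of the protease sums, 0.68, was 0.32 to 0.98 with 1 library left out. Scaling without muscle, red cell, neutrophil and marrow genes moved the median of all genes to 0.11, beside 0.07, and left both calls. Little sign of pairing by replicate number was seen: deviations of same-numbered libraries correlated at -0.0571 to 0.0797, and 1 of 8 libraries correlated best with its own number. With 4 such pairs this cannot exclude a pairing. The replicate block called 1371 genes, with Fcer1a at an adjusted p of 0.0275 and Hdc at 0.0915. The 1503880 reads of naive replicate 4 limit the low members, Ms4a2 having 0 reads and Fcer1a 1 read in it.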
